A study of Mus musculus with 5 samples.

Results

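The nuclei described here were gated for the NTS/Tac2 type of the lateral central amygdala (CeL) and picked from all sequenced inhibitory nuclei by 4 genes: Dnah5, Vipr2, Tac2 and Nts. A nucleus was a member when these genes together reached 6 UMIs (unique molecular identifiers, counted molecules) per 10000 UMIs of that nucleus, while Pde1c stayed under 15, Rarb under 5 and Foxp2 under 8 on the same scale. Nuclei entered this choice with 500 to 8000 genes, under 0.8% mitochondrial UMIs and at least 1 UMI of the GABA-synthesis genes Gad1 and Gad2. The gate kept 308 of 6020 inhibitory nuclei (5.12%), out of 7161 nuclei of any class that passed the filters and 23839 deposited barcodes. The study asked which inhibitory types the mouse central amygdala (CeA) holds and how fasting changes their transcripts. Single-nucleus RNA sequencing was run on 5 libraries, each from the pooled CeA of 1 male and 1 female mouse. Fed replicates 1 and 2 came from mice labelled C57BL6 (the study's wild-type strain is C57BL/6NRj), aged 8 weeks. Fed replicate 3 came from Htr2a-Cre mice aged 12 weeks that carried AAV-DIO-mCherry, a virus that gives red fluorescence only in Cre-expressing cells. Fasted replicates 1 and 2 came from C57BL6 mice aged 8 weeks, without food for 20 h and 21 h by their labels. Age, genotype and virus cannot be told apart from library in fed replicate 3. No nucleus was sorted, and pooling leaves no value for a single mouse.

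CeL neurons that make neurotensin and neurokinin B, the products of Nts and Tac2, are GABAergic neurons linked in earlier work to appetitive behavior. Vipr2 encodes the VPAC2 receptor, which binds the peptides VIP and PACAP and raises cAMP. Alk encodes anaplastic lymphoma kinase, a receptor tyrosine kinase, Tox encodes a nuclear protein with an HMG box, and Dnah5 encodes an axonemal dynein heavy chain better known from cilia.

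The gate drew on its 4 genes unequally. A Dnah5 UMI was present in 292 members, a Vipr2 UMI in 236, a Tac2 UMI in 200 and a Nts UMI in 136. All 4 genes were found in 90 members, whereas 68 members had neither a Tac2 nor a Nts UMI. Dnah5 and Vipr2 alone would have passed 261 members and the peptides alone 35. The members are therefore best read as nuclei gated mainly by Dnah5 and Vipr2, with the peptides detected in most of them. The member nearest to the threshold had 6.01 UMIs per 10000 and the nearest inhibitory nucleus outside had 5.99. There was no gap at this boundary: 114 nuclei lay between 4 and 6 and 60 members between 6 and 8. Another 5 nuclei reached the gate and failed a limit on Pde1c, Rarb or Foxp2.

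**Figure D1:**
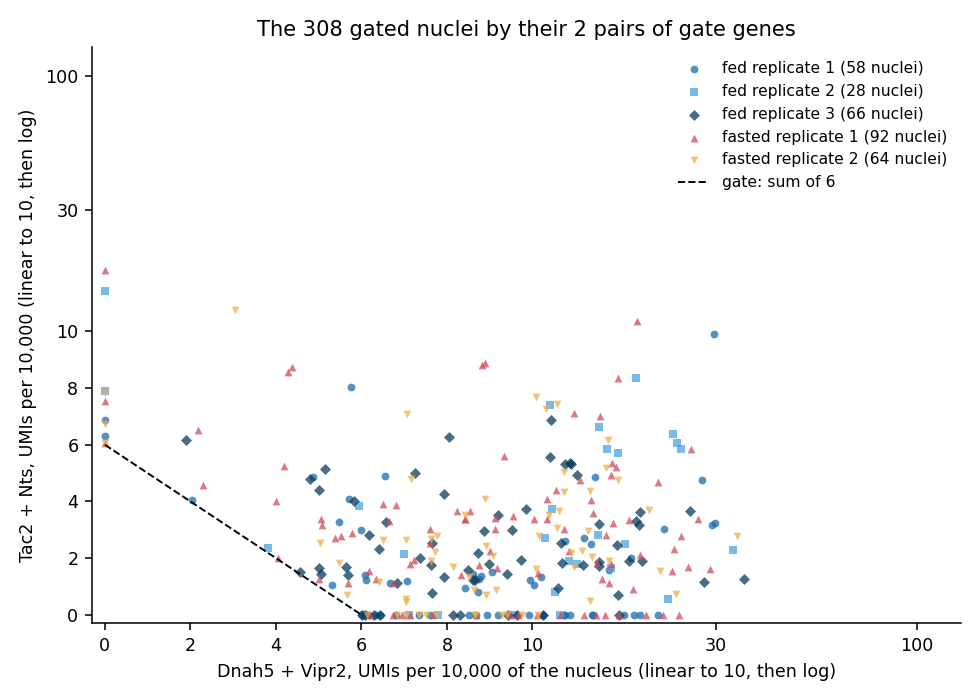
Each point is 1 of the 308 gated nuclei, by summed Dnah5 and Vipr2 (horizontal) and summed Tac2 and Nts (vertical), in UMIs per 10000 UMIs of the nucleus, on axes linear to 10 and logarithmic above. Colors and symbols mark the 5 libraries, the dashed line the threshold of 6; most nuclei lie to the right, past the threshold on Dnah5 and Vipr2 alone, and 10 lie at 0 on that axis.

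Fed replicates 1, 2 and 3 gave 58, 28 and 66 members, and fasted replicates 1 and 2 gave 92 and 64. Their summed counts were 578065, 508542 and 1051243 UMIs in the fed libraries and 696018 and 1133358 in the fasted ones. A member held a median of 11102 UMIs (850 to 48984) and 3636 genes. The median member depth followed the library: 9676, 19537 and 15275 UMIs in the fed libraries, and 7123 and 17244 in the fasted ones. Only 5 members had under 2000 UMIs, 3 rested on a single gate UMI, and 2 were called doublets. No member barcode occurred in more than 1 library, while 58 of all deposited barcodes did. Fasted libraries stood apart in mitochondrial transcripts: the median share in members was 0.126%, 0.0117% and 0.0284% in fed replicates 1 to 3, and 0.277% and 0.175% in the fasted replicates.

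The levels of the gate genes are given as description only, because they chose the nuclei. Levels are in CPM, counts scaled to 1000000 UMIs of the summed nuclei of a library, and compare 1 gene between groups of nuclei. Dnah5 (GRCm39 chromosome 15, 28203898 to 28472198) was at 789, 822 and 632 CPM in the fed libraries and 818 and 755 in the fasted ones. Vipr2 (chromosome 12, 116041346 to 116109883) was at 358, 492 and 424 CPM fed and 338 and 300 fasted. Fed and fasted libraries overlapped for Dnah5, and both fasted libraries were the lowest for Vipr2. Tac2 (chromosome 10, 127560347 to 127567638) was at 104, 210 and 117 CPM fed and 263 and 175 fasted. Nts (chromosome 10, 102317614 to 102326396) was at 62.3, 132 and 126 CPM fed and 54.6 and 48.5 fasted. The peptide genes thus differed in order, with both fasted libraries lowest for Nts and fed replicate 2 among the fasted ones for Tac2. In the other inhibitory nuclei of the fed libraries the means were 30.6 ± 4.50 CPM for Dnah5, 4.85 ± 1.67 for Vipr2, 8.88 ± 1.51 for Tac2 and 6.37 ± 1.84 for Nts (SD, n = 3).

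The proposed type was then held against markers of its neighbours. Rarb, Pde1c and Foxp2 were kept low by the rule. Prkcd, which marks the CeL neurons that suppress feeding, was not, and it was at 263, 108 and 79.0 CPM in members of the fed libraries and 148 and 136 of the fasted ones. This compared with 84.1 ± 10.5 CPM in the other inhibitory nuclei and with 683 ± 24.0 CPM in fed nuclei gated by Prkcd itself (SD, n = 3), so that the Prkcd level of members was uneven, with fed replicate 1 well above the other nuclei and fed replicate 3 slightly below them. Sst, the somatostatin precursor, was at 58.8 ± 17.0 CPM in fed members, against 258 ± 7.50 in nuclei gated by Sst and Ebf1. Ebf1 was at 475 ± 77.6 CPM in members, against 1764 ± 187 in that class and 13.7 ± 15.2 in the Prkcd class (SD, n = 3). Drd2 was at 7.11 ± 3.27 CPM and Calcrl at 41.7 ± 16.2 (SD, n = 3). Basolateral interneuron markers summed to 0 CPM in fed replicates 1 and 2 and to 5.71 in fed replicate 3, with Nkx2-1 and Pvalb at 0 in all 5 libraries. The 4 excitatory markers summed to at most 3.53 CPM, with Slc17a6 at 0. The 5 markers of microglia and endothelium summed to at most 7.94 CPM, with Cldn5 at 0.

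In fed mice, 127 of 6132 genes at 20 CPM or more in members (2.07%) were at least 2-fold higher in members than in the other inhibitory nuclei in every fed library, and 283 of 6430 genes at 20 CPM or more in the other nuclei (4.4%) were at least 2-fold lower in every fed library, with 1 CPM added to both levels. No test was made, because the same nuclei were chosen by their transcripts. Ratios are log2 on the same scale, averaged over 3 libraries, and the genes named have the largest mean ratios among those that differed in the same direction in every fed library, so that Crh and Cpa6, with log2 ratios of 0.80 and 0.92 in fed replicate 1, are named without being among the 127. In the fasted libraries 87 of the 127 and 227 of the 283 genes passed the same 2-fold bound in both libraries.

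Outside the genes of the rule, the gene most enriched in members was Shroom3, an actin-binding protein that shapes cells, at 157, 132 and 77.1 CPM in the fed libraries against 5.29 ± 0.895 in the other nuclei. Its log2 ratio was 4.24 ± 0.71 (SD, n = 3), and it was at 0 CPM in the fed nuclei gated by Sst and Ebf1 and at 2.07 ± 0.835 in those gated by Prkcd. Among the other named genes, Jam2, a junctional adhesion molecule, had a log2 ratio of 3.88 ± 0.58, the integrin Itga4 3.71, the glypican Gpc4 2.89, the hyaluronan receptor Cd44 2.74 and the matrix protein Fbln2 2.73. These 5 genes, chosen here for their place at the cell surface or in the matrix, had mean levels from 50.4 CPM for Fbln2 to 112 for Jam2. Cd44 was as high in the class of Sst and Ebf1, at 56.0 ± 15.9 CPM against 53.4 ± 29.1 in members (SD, n = 3). Of the 127 enriched genes, 28 had a fed mean in that class at or above the mean of members, as had 9 in the Prkcd class, so that 37 were enriched over the pooled other nuclei without being above both neighbouring classes.

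Alk and Tox, proposed as markers of these nuclei, were among the most abundant of the named genes. Tox (chromosome 4, 6686353 to 6991644) was at 732, 948 and 850 CPM in fed members, which do not overlap the 111 ± 21.8 of the other nuclei (log2 ratio 2.93 ± 0.11, SD, n = 3). Tox was low in the Prkcd class, at 19.4 ± 10.6 CPM, and intermediate in the class of Sst and Ebf1, at 315 ± 96.9. Alk (chromosome 17, 72174200 to 72911622) was at 957, 1109 and 1711 CPM in fed members against 231 ± 35.4 in the other nuclei (log2 ratio 2.41 ± 0.45). The Prkcd class held 533 ± 71.6 CPM of Alk and the class of Sst and Ebf1 84.9 ± 45.1, so that Alk marked members more than either and Prkcd nuclei in second place. Crh, the precursor of corticotropin-releasing hormone, was uneven, at 5.19, 53.1 and 20.9 CPM in fed members against 2.54 ± 0.0248 in the other nuclei. At equal depth (4000 UMIs a nucleus) Tox was found in 80.1% ± 10.7 of fed members and 19.0% ± 3.15 of the other nuclei (unthinned 82.9% and 31.8%). Glial nuclei, which lack Gad1 and Gad2, gave 82.3% ± 1.10 for Tox (thinned), 27.8% ± 18.0 for Alk and 0% for Tac2 and Crh. Tox was thus enriched in members among inhibitory nuclei, though neither absent from the others nor from glia.

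Further enriched genes were Cdc14a, a phosphatase of the cell-division-cycle family (log2 ratio 2.93), the contactin-associated protein Cntnap4 (2.35), the vesicular monoamine transporter Slc18a2 (2.40), the growth factor Igf1 (2.51), the interleukin-receptor kinase family member Irak3 (2.75), the carboxypeptidase Cpa6 (2.34) and a second axonemal dynein, Dnah3 (2.68). Spink8, Mob3b and Arhgap36 completed the named genes with log2 ratios of 3.11, 2.81 and 2.76. Crh and Cpa6 carried the largest spread, with fed replicate 1 the lowest for both at 5.19 and 6.92 CPM, and Cpa6 was at 49.5 ± 16.2 CPM in the class of Sst and Ebf1 against 35.9 ± 26.5 in members (SD, n = 3). The genes most depleted were Adarb2, a member of the RNA-editing enzyme family (log2 ratio -4.59), Spon1 (-4.37), Igsf21 (-4.36), Megf11 (-4.34), Tmem132e, Vwc2l, 6330411D24Rik (-3.97), the transcription factor Sox6 (-3.96), the kainate receptor subunit Grik1 (-3.87) and the zinc finger gene Zfp423 (-3.85). Adarb2 was at 12.1, 29.5 and 49.5 CPM in members and at a mean of 680 CPM in the other nuclei. All 10 depleted genes also had fed means below those of the other nuclei in both neighbouring classes. Adarb2 was at 64.7 CPM in the Prkcd class and 33.7 in the class of Sst and Ebf1, and Sox6 at 8.28 and 15.7. The least low was Vwc2l, at 39.2 CPM in the class of Sst and Ebf1 against 96.1 in the other nuclei. The depletion is thus from the pooled other nuclei and is not particular to members.

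**Figure D2:**
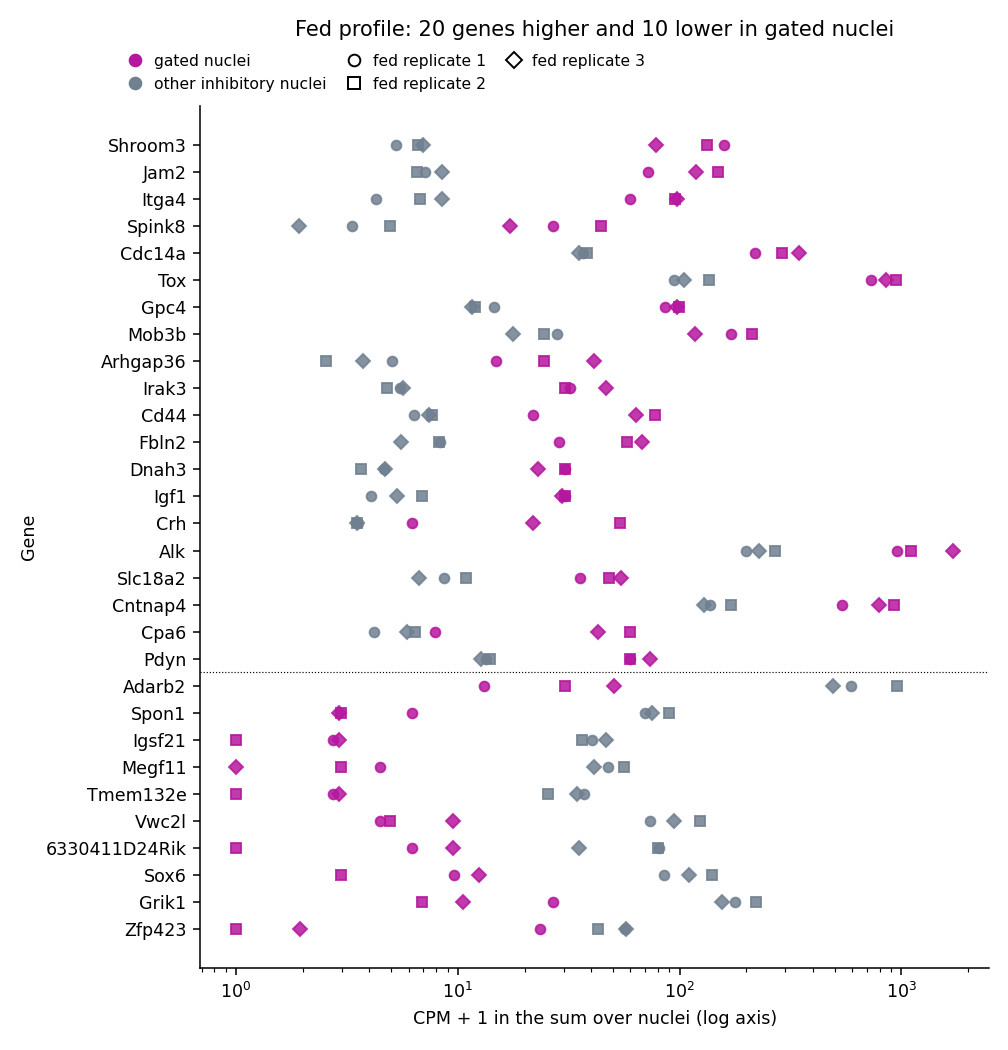
CPM plus 1 (log axis) of the 20 genes most enriched and the 10 most depleted in gated nuclei, per fed library (symbols), in the sums of gated nuclei (magenta) and of the other inhibitory nuclei (gray). Both sets are apart for all 30 genes, and Crh and Cpa6 come nearest in fed replicate 1.

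Peptide precursors were few beside Nts and Tac2. Among 26 precursors outside the gate, 7 reached 20 CPM in fed members and 2 were at least 2-fold higher in every library: Pdyn, the dynorphin precursor, at 58.8, 59.0 and 72.3 CPM against 12.4 ± 0.62 in the other nuclei, and Sst. Pdyn was as steady in the fasted libraries, at 64.7 and 60.9 CPM, and was low in the Prkcd class at 2.93 ± 3.23. The class of Sst and Ebf1 held it as well, at 86.0 ± 37.4 CPM (SD, n = 3), so that Pdyn did not set members apart from that class. Penk, the enkephalin precursor, was at 83.0, 47.2 and 34.2 CPM against 127 in the other nuclei. Pnoc, the nociceptin precursor, was at 13.8, 13.8 and 12.4 CPM in members and at a mean of 4.01 in the others. Agrp was listed at 103 ± 19.6 CPM in members and 87.0 ± 4.31 in the others (SD, n = 3). Its GENCODE model runs over chromosome 8, 106293326 to 106364065, across Ripor1 and part of Ctcf on the other strand, and intron reads were counted, so that these counts need not come from the Agrp coding transcript.

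Receptors differed in both directions. Of 43 peptide and feeding-hormone receptors outside the gate, 10 reached 20 CPM in members. Vipr1, the second VIP receptor, was at 29.4, 25.6 and 25.7 CPM against 8.41 in the other nuclei, and Hcrtr2, an orexin receptor, at 39.8, 43.3 and 72.3 against 15.2. The lower ones were the PACAP receptor Adcyap1r1, at 13.8, 5.90 and 14.3 CPM against 72.3, the CRH receptor Crhr1 and the µ-opioid receptor Oprm1, at 34.6, 23.6 and 32.3 CPM against 106. Of the VIP and PACAP receptors that the rule did not use, Vipr1 was thus above and Adcyap1r1 below the level of the other nuclei. Ghsr, the ghrelin receptor, had 0 UMIs among 3967226 of all members, which allows up to 0.756 CPM over all 5 libraries by counting error alone, and 1 UMI in the other inhibitory nuclei. Of 28 monoamine and acetylcholine receptors, 7 reached 20 CPM in members and 10 in the other nuclei. Drd3 was higher (1 of 7), at 46.7, 92.4 and 76.1 CPM against 14.8, and Htr1f, Htr4, Htr7 and Drd2 were lower (4 of 10). Htr2a was at 0 CPM in fed replicates 1 and 2 and fasted replicate 1, at 35.2 in fed replicate 3 and at 7.06 in fasted replicate 2.

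Lists of genes, those of peptides and receptors above included, are read against shares of all genes at 20 CPM or more. Of these, 4.4% were at least 2-fold lower and 2.07% at least 2-fold higher in every fed library. This is description with no test. Of 22 glutamate receptor genes at 20 CPM in the other nuclei, 7 were at least 2-fold lower in members in every fed library (among them Grik1, Grik3, Grik4, Grin2d, Grin3a and Grm8) and 0 of 19 at 20 CPM in members were 2-fold higher. The same held for 7 of 36 voltage-gated channel genes, among them the T-type calcium channels Cacna1g and Cacna1i and the potassium channel Kcnj6, with 0 of 32 higher. Among 17 genes of GABA receptors and synthesis, Gabbr2 was lower and 0 were higher. Of 31 transcription factor genes, 8 were lower (Foxp1, Six3, Nr2f1, Satb1, Mef2c, Sox6, Zeb2 and Tcf4), beside 4.4% of all such genes, while Tox, Tox3 and Tshz2 were higher among 24, beside 2.07%.

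In the ALK pathway, 2 of 6 genes at 20 CPM in members were higher, Alk itself and Shc3, an adaptor of receptor tyrosine kinases (372, 354 and 306 CPM against 142). The ligand gene Ptn was lower, at 13.8, 7.87 and 14.3 CPM against 48.7. In VIP and PACAP signalling, Vipr1 and Rapgef3, a cAMP-activated exchange factor, were higher (2 of 21), and Adcyap1r1, the second exchange factor Rapgef4 and the phosphodiesterase Pde4b were lower (3 of 22). Rapgef3 was at 57.1, 55.1 and 66.6 CPM against 21.3, and Rapgef4 at 156, 161 and 132 against 400. Both cAMP exchange factors thus differed, in opposite directions. Of the axonemal dyneins outside the gate, Dnah3 was higher and Dnah9 lower, and 15 of 17 were under 20 CPM in members. Wasf3 and Homer2 were higher among 43 actin and spine regulators and Ephb2 was lower. Of 14 fasting and glucocorticoid response genes and 4 immediate-early genes at 20 CPM in members, 0 differed 2-fold in every library.

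Nts and Tac2 were then followed in single nuclei. Of 147 fed members thinned to 4000 UMIs, 82 had a Nts or Tac2 UMI, 17 had both and 65 neither. Tac2 was found in 17 of 41 nuclei with Nts (41.5%) and in 41 of 106 without (38.7%), values that the rule itself shapes, since both genes chose the nuclei. Alk was found in 34 of 41 nuclei with Nts and in 80 of 106 without, and Prkcd in 9 of 41 (22.0%, exact binomial 95% interval 10.6 to 37.6%) and 43 of 106 (40.6%, 31.1 to 50.5%). Members with and without Tox differed far more. Prkcd was found in 31 of 117 thinned fed members with a Tox UMI (26.5%, 18.8 to 35.5%) and in 21 of 30 without (70%, 50.6 to 85.3%). Penk was found in 12 of 117 with Tox (10.3%, 5.41 to 17.2%) and in 18 of 30 without (60%, 40.6 to 77.3%). Of the gate genes, given as description only, Vipr2 was found in 97 of 117 with Tox (82.9%) and 6 of 30 without (20%), and Tac2 in 53 (45.3%) and 5 (16.7%). Penk was found in 8 of 103 nuclei with Vipr2 (7.77%, 3.41 to 14.7%) and in 22 of 44 without (50%, 34.6 to 65.4%). The rule shapes this split too, since Vipr2 is a gate gene, so it is description only. Pooled over the fed libraries, members without Tox more often held Prkcd and Penk, which goes against the name of the type for these nuclei. The split is not given by library, and the difference was not tested. Without thinning, 15, 5 and 5 members of the fed libraries and 13 and 10 of the fasted ones had no Tox UMI, 48 in all, with fed replicate 1 holding the largest share. That library also had the highest Prkcd and Penk levels in members of the fed libraries. These splits were chosen after their values were seen. The intervals cover counting error within pooled libraries only.

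The virus allowed one readout outside the rule. In fed replicate 3 a mCherry UMI was found in 18 of 66 members (27.3%, exact binomial 95% interval 17.0 to 39.6%), in 406 of 1253 other inhibitory nuclei (32.4%, 29.8 to 35.1%) in 40 of 131 nuclei gated by Prkcd (30.5%, 22.8 to 39.2%) and in 14 of 23 nuclei gated by Sst and Ebf1 (60.9%, 38.5 to 80.3%). Per 10000 UMIs of all nuclei of a class, mCherry stood at 0.828 in members, 1.55 in the other inhibitory nuclei, 0.650 in the Prkcd class, 4.26 in the class of Sst and Ebf1 and 0.466 in glia. Glial nuclei, which should not carry Cre-dependent mCherry, gave 5 of 60 (8.33%, 2.76 to 18.4%) at a median of 4405 UMIs against 15275 in members. In this 1 library the share of members with a UMI had an interval that overlapped those of the other nuclei and of glia, while their mCherry level was the lower of the 2 inhibitory sets. No mCherry UMI was found in the other libraries, where 0 of 58 members of fed replicate 1 allows a share with a UMI of up to 5.17% by 3 counts (6.16% by the exact interval).

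Members made up 6.20%, 3.25% and 5.00% of inhibitory nuclei in the fed libraries and 6.75% and 4.16% in the fasted ones. The groups overlapped: the fasted mean of 5.45% was 0.637 percentage points above the fed mean of 4.82% ± 1.48 (SD, n = 3; two-sided exact permutation test p = 0.7, smallest possible 0.1, so that this design could not reach the threshold). The direction turned without fed replicate 2 and without fasted replicate 1.

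Fasting was compared in the summed counts of members, 3 fed against 2 fasted libraries, over 7648 genes and without the 9 genes of the rule. In edgeR's quasi-likelihood test with Benjamini-Hochberg adjustment, 10 genes (0.131%) fell and 33 (0.431%) rose in fasted mice, and all 43 had fed and fasted libraries that did not overlap, as had 22.2% of all genes tested. By the study's supplement 2 pairs of a fed and a fasted library share a preparation, taken here to be replicates 1 and replicates 2, with fed replicate 3 the library outside these pairs. With this batch as a block 97 genes were called (1.27%), 39 lower (0.51%) and 58 higher (0.758%), and they included all 43. Fed replicate 3 is alone in its batch, so that in the block fit the fasting change rests on the 2 pairs only. That fit leaves very few degrees of freedom to measure spread between libraries. Block calls, here and below, are therefore given as an alternative and not as added support. The counts leaned on single libraries, with 109 genes called without fed replicate 1, 40 without fed replicate 2, 3 without fed replicate 3, 23 without fasted replicate 1 and 8 without fasted replicate 2.

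Cdc14a (chromosome 3, 116066201 to 116222394) fell the most clearly. It was at 218, 289 and 345 CPM in the fed libraries and 67.5 and 60.9 in the fasted ones, a log2 change of -2.21 ± 0.26 (SE, adjusted p = 0.00135 by edgeR). The lowest fed library was over 3 times the highest fasted one, and the call held in each of the 5 fits that left out a library (adjusted p 0.000132 to 0.0313). Nuclei gated by Prkcd, which also express Cdc14a, had 162, 265 and 139 CPM fed and 149 and 125 fasted, and these overlapped.

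Ubash3b, a phosphatase that acts on tyrosine-kinase signalling (chromosome 9, 40922389 to 41072993), was at 495, 798 and 691 CPM fed and 249 and 258 fasted (log2 change -1.44 ± 0.24, adjusted p = 0.0157 by edgeR). Etv5, an ETS transcription factor of the PEA3 group (chromosome 16, 22200052 to 22259662), was at 270, 258 and 232 CPM fed and 83.3 and 119 fasted (-1.35 ± 0.23, adjusted p = 0.0157). In both genes every fed library lay above every fasted one by a wide margin. Neither call held without fed replicate 3 (adjusted p = 0.188 for Ubash3b and 0.142 for Etv5 by edgeR) or without either fasted replicate. Without fasted replicate 1 the log2 change was -1.43 for Ubash3b and -1.15 for Etv5, and without fasted replicate 2 it was -1.46 and -1.64. In the Prkcd class Ubash3b was at 623, 827 and 638 CPM fed and 786 and 601 fasted, with no separation, whereas Etv5 was at 242, 264 and 226 fed and 177 and 167 fasted.

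Of the other genes that fell, Srgap1, a GTPase-activating protein of the Slit-Robo pathway, was at 187, 248 and 278 CPM fed and 106 in the higher of the fasted libraries, whose mean was 105.7 (log2 change -1.22). The class I myosin Myo1d went from 140, 191 and 210 CPM to 83.3 and 67.9 (-1.32), and Pdlim5, a PDZ-LIM scaffold of actin filaments, from 132, 80.6 and 122 to 50.3 and 40.6 (-1.36). Lrmda was at 31.1, 35.4 and 56.1 CPM fed and 12.9 and 9.71 fasted (-1.97). The predicted gene Gm11639 changed by -2.37, Eepd1 by -1.41 and Sgsm1 by -1.01, with adjusted p-values of these 7 genes from 0.0157 to 0.0440 by edgeR. Gm11639 kept its call in 3 of the 5 fits that left out a library and the other 6 genes in 2 of 5, each losing it at least without fed replicate 3 (adjusted p 0.188 to 0.424) and without fasted replicate 1 (0.0960 to 0.208). Of the 10 genes that fell, 6 were among the 127 enriched in fed members (Cdc14a, Gm11639, Ubash3b, Etv5, Eepd1 and Pdlim5), as were 0 of the 33 that rose and 1.66% of all genes tested. That enrichment is over the pooled other nuclei, and the fed Prkcd class held Gm11639 at 103 ± 27.1 CPM, Ubash3b at 696 ± 114, Etv5 at 244 ± 18.9 and Eepd1 at 204 ± 9.44, beside 81.8, 661, 253 and 192 in members (SD, n = 3). Eepd1 was at 211, 193 and 206 CPM fed and 141 and 136 fasted in the Prkcd class, and Gm11639 at 126, 73.1 and 109 fed and 96.6 and 41.9 fasted. Sgsm1 was also lower there in both fasted libraries, at 379, 408 and 514 CPM fed and 288 and 294 fasted. Srgap1 went the other way, at 26.4, 43.3 and 49.2 fed and 59.7 and 51.3 fasted, and Myo1d, Pdlim5 and Lrmda overlapped. Over all 127 enriched genes the median log2 change was -0.29, against -0.01 over all 7648 genes. These 127 genes were picked by their high level in the same fed libraries, which favors falls over rises. Both this median and the overlap of 6 of the 10 genes with the 127 are therefore descriptions.

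Alk and Tox were followed as markers. Alk was at 957, 1109 and 1711 CPM fed and 757.2 and 501.2 fasted, so that both fasted libraries were the lowest, with a log2 change of -1.05 ± 0.26 that did not pass in members alone (adjusted p = 0.112; 0.0344 with the batch block, both by edgeR). Tox did not separate the groups (-0.15 ± 0.20, adjusted p = 0.953), nor did Crh (-1.20 ± 0.65, adjusted p = 0.734).

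**Figure D3:**
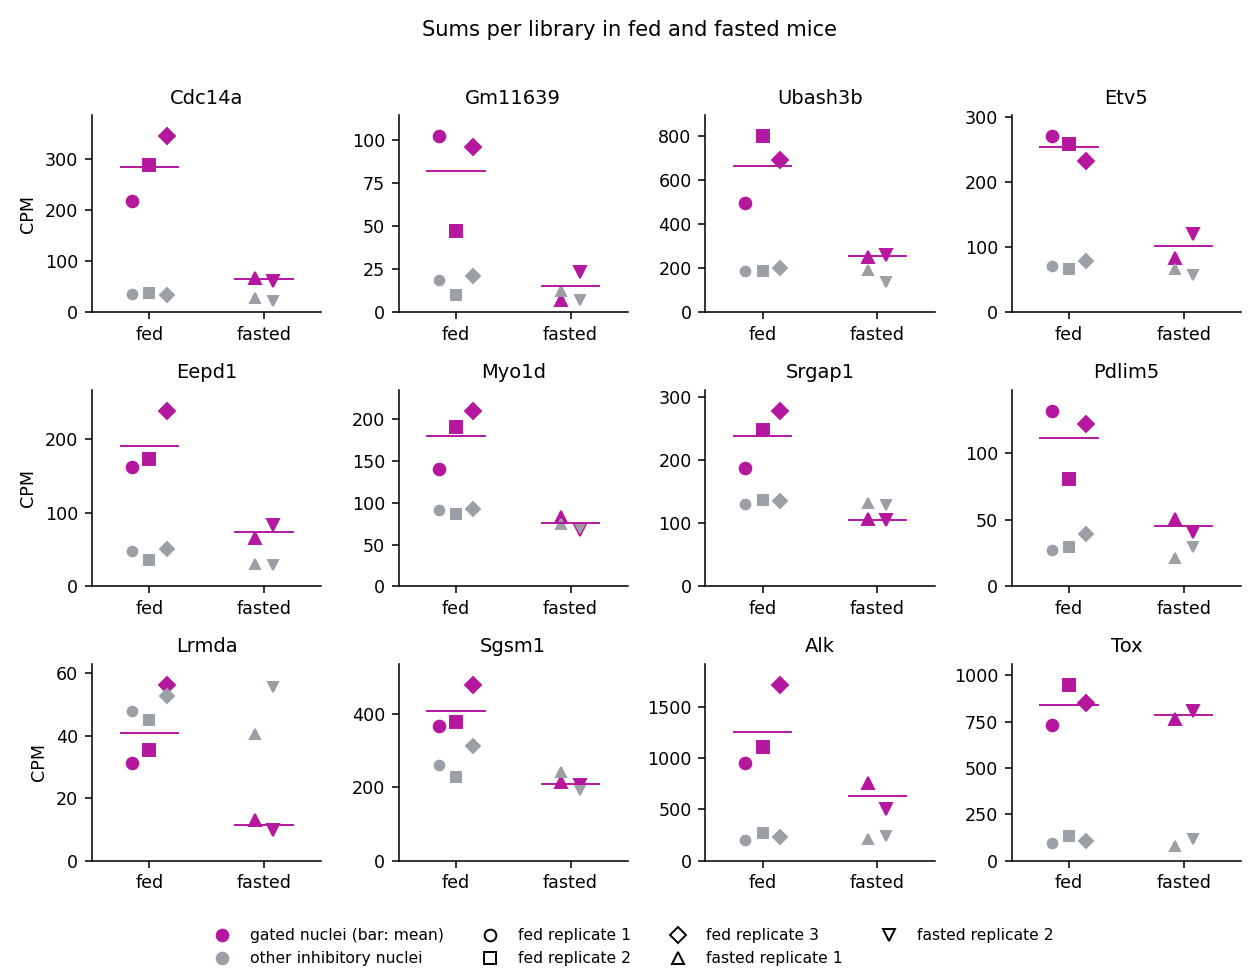
CPM per library (symbols) of the 10 genes that fell in fasted mice and of Alk and Tox, in gated nuclei (magenta, bar at the group mean) and in the other inhibitory nuclei (gray), on axes from 0. Cdc14a lies at 218 to 345 CPM in the fed and 60.9 to 67.5 in the fasted libraries, while Tox overlaps.

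Upstream sequence is shown for Ubash3b and Srgap1, which fell in members and had the largest differences from the other nuclei after Cdc14a by adjusted p. Their 250 bases before the GENCODE canonical start site overlap no annotated exon, as do those of Myo1d and Lrmda, which are not shown, while those of Cdc14a and Etv5 do overlap one; that of Ubash3b lies inside the span of the gene, which has a longer transcript. The windows are chr9:41069359-41069608 and chr10:121883221-121883470 of GRCm39, both read on the minus strand, 5′ to 3′, up to the base before the start site. Capitals would mark a match to TGACG (the core of a cAMP response element), CCGGAAGT (an ETS core) or TGTTTAC (a FoxO core) on either strand; these letters do not overlap each other, and neither window holds one, so all letters are in lower case.
Ubash3b: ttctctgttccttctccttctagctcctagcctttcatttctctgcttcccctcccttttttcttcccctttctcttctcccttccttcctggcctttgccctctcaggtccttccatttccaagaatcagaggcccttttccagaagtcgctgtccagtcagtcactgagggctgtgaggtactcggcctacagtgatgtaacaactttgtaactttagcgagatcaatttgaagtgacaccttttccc
Srgap1: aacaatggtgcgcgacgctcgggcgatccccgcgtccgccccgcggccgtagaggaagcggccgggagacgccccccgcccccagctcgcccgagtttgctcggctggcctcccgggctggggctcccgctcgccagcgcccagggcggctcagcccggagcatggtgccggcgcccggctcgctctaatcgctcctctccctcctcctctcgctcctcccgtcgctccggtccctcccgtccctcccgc
Of 21770 protein-coding windows of this length, TGACG was in 18%, CCGGAAGT in 2.64% and TGTTTAC in 2.72%. Of the same windows of the 6 genes called lower in both comparisons, 1 held a match, that of Etv5 with TGTTTAC on the opposite strand 20 bases before the start site. The windows differ in base composition, with 48.4% G and C before Ubash3b and 76.4% before Srgap1.

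Of the 33 genes that rose, 15 were ribosomal protein genes on the list, 2 were of the mitochondrial genome (mt-Cytb and mt-Co2) and 16 were neither, among them Fau, which encodes a further ribosomal protein. Cst3, the secreted protease inhibitor cystatin C, was at 31.1, 31.5 and 25.7 CPM fed and 121 and 291 fasted (log2 change 2.80 ± 0.33, adjusted p = 0.00135 by edgeR) and kept its call without each library. Ptgds, a prostaglandin D synthase abundant in meninges and glia, was at 0, 3.93 and 7.61 CPM fed and 43.1 and 69.7 fasted (3.57 ± 0.51, adjusted p = 0.00607), with its call lost without fasted replicate 2 (0.116). Fth1, the ferritin heavy chain, Mt3, a metallothionein, and Cox8a, a respiratory chain subunit, rose by 2.50, 2.32 and 1.84 on the log2 scale. The named ribosomal protein genes Rpl37, Rpl19, Rpl9 and Rplp1 rose by 1.87 to 2.17 on the log2 scale, and reads of such genes can be shared with processed pseudogenes. Entpd3, an ectonucleotidase, was at 20.8, 17.7 and 20.9 CPM fed and 56.0 and 69.7 fasted (1.62 ± 0.28, adjusted p = 0.0167 by edgeR), with every fasted library above every fed one. Without fed replicate 3, Cst3 and Ptgds kept their call among the 33; without fasted replicate 2, Cst3, mt-Cytb, mt-Co2, Mgll and Sun2 did.

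The summed levels of both gene groups were higher in both fasted libraries than in every fed one, in members and in the other inhibitory nuclei. The 13 mitochondrial genome genes summed to 1382, 382 and 592 CPM in fed members and 3000 and 1853 in fasted ones, led by mt-Atp6. In the other inhibitory nuclei they summed to 1687, 1541 and 1063 CPM fed and 3187 and 2324 fasted. The 81 ribosomal protein genes, led by Rpl41, summed to 1650, 997 and 1236 CPM in fed members and 2543 and 3512 in fasted ones, and their 63 tested members had a median log2 change of 1.29, with 62 positive. In the other inhibitory nuclei the ribosomal protein genes summed to 1817, 1111 and 1318 CPM fed and 2722 and 2583 fasted. All 12 tested mitochondrial genome genes were positive in members (median 1.55). Of these 2 were called, as were 15 of the 63 tested ribosomal protein genes, and with the batch block 10 and 20 were called.

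Glial transcripts were examined beside them. The 7 astrocyte markers summed to 486, 484 and 485 CPM in fed members and 466 and 537 in fasted ones. Slc1a2 made up most of the sum in every library except fasted replicate 2. It was itself 1.32 higher (log2) in fed members than in the pooled other nuclei, and at 406, 464 and 438 CPM fed and 359 and 264 fasted in members. In the other inhibitory nuclei the same markers summed to 306, 307 and 401 CPM fed and 431 and 503 fasted, which did not overlap. The class of Sst and Ebf1 held as much Slc1a2 as members, at 452 ± 39.5 CPM fed against 436 ± 28.8 (SD, n = 3). Slc1a2 changed by -0.89 relative to the other nuclei in the joint model described further on (adjusted p = 0.0164 by edgeR; 0.126 without fed replicate 2 and 0.476 without fasted replicate 2), from -0.54 in members (adjusted p = 0.475) and 0.32 in the other nuclei (unadjusted p = 0.0466, adjusted p = 0.874). Apoe rose (34.6, 15.7 and 20.0 CPM fed, 47.4 and 227 fasted; 2.56, adjusted p = 0.0259 by edgeR, 0.743 without fasted replicate 2), as 1 of 4 astrocyte markers tested, while Slc1a3 was at 17.3, 0 and 5.71 CPM fed and 28.7 and 23.8 fasted. The near-level astrocyte sum in members thus holds changes in both directions. Of the 4 markers tested, 3 had a positive log2 change and 1, Slc1a2, a negative one. The 6 oligodendrocyte markers summed to 185, 132 and 180 CPM fed and 237 and 256 fasted, led by Mbp, with 0 of 3 tested called (Mobp with the batch block). The 3 markers of oligodendrocyte precursors summed to 15.8 to 27.5 CPM over the 5 libraries, with 0 of 1 called. Restricted to the members with a Tox UMI, all 10 genes that fell kept their call (adjusted p 0.000314 to 0.049 by edgeR; 11 genes fell), and 14 rose. The part of glial, mitochondrial or cytoplasmic transcripts in the rise of single genes was not tested. Restricted to members with under 0.2% mitochondrial UMIs, which left 26 and 37 fasted members, 1 gene fell (Cdc14a, -2.09) and 1 rose (Ptgds, 4.46), both at an adjusted p of 0.0092 by edgeR. The other genes that fell lost their call here but not their direction. Over the 19 settings tried, this one among them, their weakest log2 changes ran from -0.864 for Sgsm1 to -1.91 for Gm11639.

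**Figure D4:**
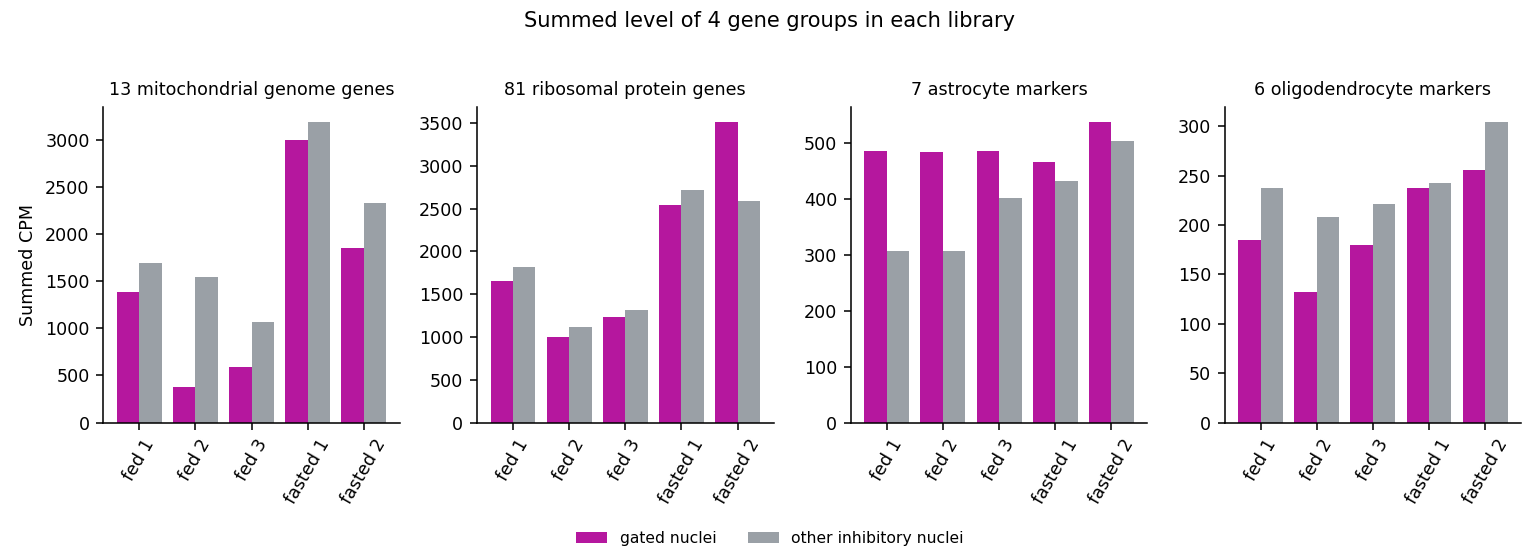
Summed CPM per library of mitochondrial genome genes, ribosomal protein genes, astrocyte markers and oligodendrocyte markers in gated nuclei (magenta bars) and in the other inhibitory nuclei (gray bars), on axes from 0. Both fasted libraries are above all fed ones for the first 2 groups and for oligodendrocyte markers, in both sets of nuclei. The astrocyte sum stays within 466 to 537 CPM in gated nuclei, where Slc1a2 is lower and Apoe higher in both fasted libraries. In the other nuclei it is above all fed libraries in both fasted ones.

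Functional lists were read against the 0.562% of all tested genes that were called, a share at which 0 calls in a list of this size says nothing particular about it. Of 7 peptide precursors tested 0 were called (median log2 change -0.08, against -0.01 over all genes), and the same was true of 10 peptide and hormone receptors (-0.04), 9 monoamine and acetylcholine receptors (0.10), 21 glutamate receptor genes (-0.06), 18 genes of GABA receptors and synthesis (-0.06), 34 voltage-gated channel genes (0.14), 44 actin and spine regulators (-0.01), 4 axonemal dyneins (0.17) and 5 immediate-early genes (-0.08). Among 8 ALK pathway genes 0 passed (median -0.06), Alk passing with the batch block, and among 22 genes of VIP and PACAP signalling 0 passed (-0.07). Of 14 fasting and glucocorticoid response genes 0 passed, though Fkbp5, a co-chaperone induced by glucocorticoids, was at 128, 201 and 60.9 CPM fed and 310 and 291 fasted (1.21 ± 0.34, adjusted p = 0.184; 0.0137 with the batch block, by edgeR). Other CeA type markers gave 0 of 7 calls (median -0.20; Cdh9 passed with the batch block), and of 29 transcription factor genes 1, Sox6, rose. The last list held 6 genes that the study chose on these samples, 5 of them tied to spines and synapses and Alk besides, and is thus no independent evidence. Pdlim5 passed, lower, and 0 passed higher, while at an unadjusted p under 0.05 all 6 did, 3 in each direction. Dapk1, Cyfip1 and Tanc1 had log2 changes of 0.46, 0.73 and 0.74 (adjusted p = 0.611, 0.261 and 0.435 by edgeR). Mical2, which oxidizes actin, was at 43.3, 49.2 and 57.1 CPM fed and 21.6 and 25.6 fasted (-1.12 ± 0.29, adjusted p = 0.139 by edgeR), and with the batch block Pdlim5 and Alk were called.

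Whether the response was particular to members was asked in a joint model of 10 sums, with each library as a block, over 12334 genes. It called 27 genes (0.219%), of which 19 (0.154%) changed more negatively and 8 (0.0649%) more positively in members than in the other inhibitory nuclei. The other nuclei on their own gave 0 calls of 13705 genes in the quasi-likelihood test, with 774 at an unadjusted p under 0.05, 165 calls by the likelihood ratio test and 388 with the batch block. Cdc14a led the differences at -1.64 ± 0.23 (SE, adjusted p = 0.000486 by edgeR), followed by Srgap1 (-1.17 ± 0.19, 0.00649), Ubash3b (-1.12 ± 0.19, 0.00787), Sox6 (2.40 ± 0.43, 0.00826), Lrmda (-2.01 ± 0.36, 0.00826) and Pitpnc1, a phosphatidylinositol transfer protein (-1.07 ± 0.19, 0.00826). Cdc14a and Srgap1 passed without each of the 5 libraries. Ubash3b lost the call without fed replicate 2 (0.0606) and fasted replicate 1 (0.188), Lrmda without fed replicate 3 (0.123) and fasted replicate 2 (0.373), and Pitpnc1 without fed replicate 3 (0.0849) and fasted replicate 1 (0.194).

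In the other nuclei Cdc14a was at 35.8, 37.2 and 34.1 CPM fed and 27.4 and 22.0 fasted, which did not overlap (log2 change -0.57, unadjusted p = 0.00670, adjusted p = 0.473 by edgeR), so that the difference lay in the size of the fall. Srgap1 was at means of 134 CPM fed and 131 fasted there, and Lrmda at 48.4 and 48.1. Alk differed as well: it changed by -0.995 ± 0.20 relative to the other nuclei (adjusted p = 0.0200), which held 231 CPM fed and 224 fasted. Alk was also lower in both fasted libraries of the neighbouring classes, at 560, 452 and 587 CPM fed and 414 and 300 fasted in the Prkcd class, and at 101, 34.0 and 120 fed and 8.75 and 17.3 fasted in the class of Sst and Ebf1; neither was tested. The Alk call was lost without fed replicate 3 (0.179) and fasted replicate 2 (0.524). Etv5 differed by -1.07 ± 0.21 (adjusted p = 0.0150; 0.101 without fed replicate 2 and 0.384 without fasted replicate 1, by edgeR). Of the 10 genes that fell in members, 6 were called here, and of the 33 that rose 4 were: Cst3, Ap1b1, Entpd3 and Sox6. The Cst3 difference of 1.65 lost its call without fed replicate 3 (0.0849) and without fasted replicate 2 (0.434, with a difference of 0.955), Sox6 without fed replicate 2 (0.0958) and fasted replicate 2, and Ap1b1 and Entpd3 passed in 1 of the 5 fits that left out a library. No ribosomal or mitochondrial genome gene was among the 27, with difference estimates of 0.61 to 0.73 for the named ribosomal ones. With the batch block, which called 27 genes as well, mt-Co2 (adjusted p = 0.00397 by edgeR) and Gm11639 (0.0381) passed and Myo1d (0.132) and Entpd3 (0.0768) did not.

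Sox6 stands apart. It was at 8.65, 1.97 and 11.4 CPM in fed members and 18.7 and 80.3 in fasted ones, against a mean of 111 in fed and 122 in fasted other nuclei, so that fasted replicate 2 carried the rise. Nxph1, an interneuron gene called with it, was at 15.6, 11.8 and 33.3 CPM fed and 28.7 and 154 fasted. Without fasted replicate 2 the Sox6 difference was 1.25 (adjusted p = 0.928 by edgeR). Only 6 members reached 5 UMIs per 10000 of Nxph1 and Sox6 together, 1 in fed replicate 3, 2 in fasted replicate 1 and 3 in fasted replicate 2. Without them the Sox6 difference was 0.56 (adjusted p = 0.941 by edgeR); as they were picked by Sox6 itself, a smaller value was bound to follow, and it is given only to show how few nuclei carry the 2.40.

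**Figure D5:**
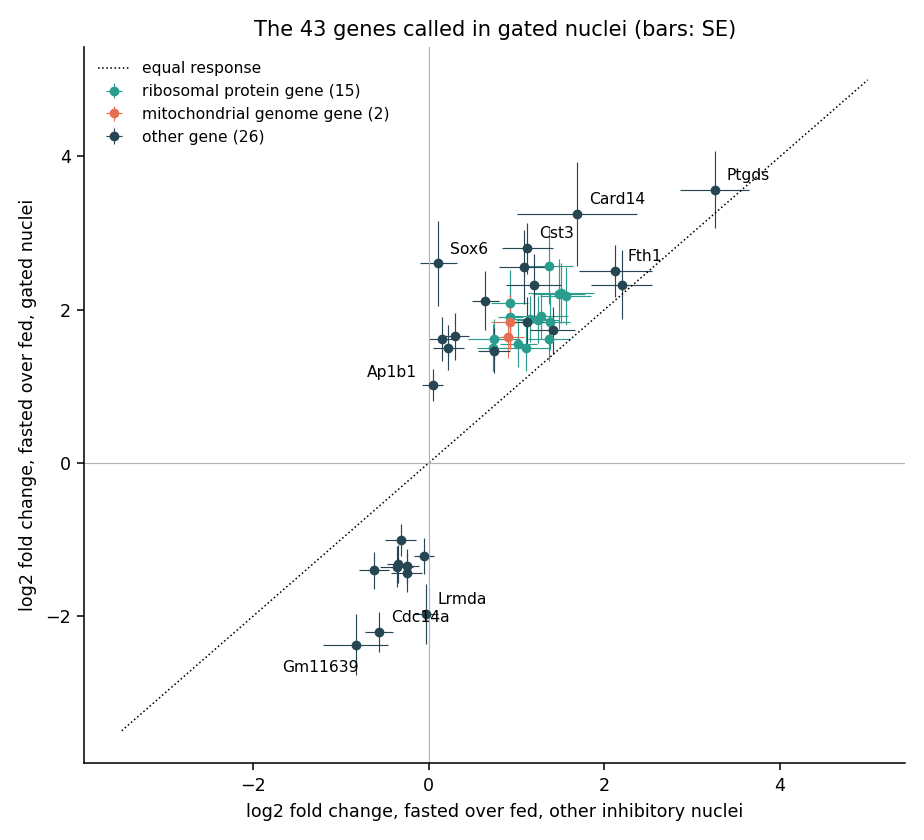
Log2 fold change, fasted over fed, of the 43 genes called in gated nuclei (vertical) against that in the other inhibitory nuclei (horizontal), with SE bars; the dotted line marks equal response. Ribosomal and mitochondrial genes lie at 0.73 or more on both axes, whereas Cdc14a (-2.21 and -0.57), Lrmda (-1.97 and -0.04) and Sox6 (2.60 and 0.11) lie far from the line; both axes share the same 5 libraries.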

How the data were processed

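Nuclei were measured with the 10x 3′ chemistry. The authors deposited raw UMI counts of 22532 features per barcode. The study's methods and the file headers name Cell Ranger 5.0.0 with introns counted, and GRCm39 with Ensembl annotation; the submitters' processing notes name Cell Ranger 2.1.1 and mm10. Here, counts of members and of the other inhibitory nuclei were summed per library. Sums were tested with edgeR 4.0.16 (R 4.3.3; TMM, filterByExpr, quasi-likelihood F test, Benjamini-Hochberg adjustment over all genes tested, threshold 0.05) without the 9 rule genes. SD is over libraries, and n counts pools of 2 mice. Total UMIs per library ran from 17321997 to 53146326.

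The rule used values of these nuclei, and members, gene lists and tests were chosen with earlier results of these data known. Named genes are the 20 most enriched and 10 most depleted in the fed profile, up to 12 per direction with the lowest adjusted p and no overlap between groups, up to 6 from the joint model, gate genes, Tox, Alk and Crh, and list members as examples (1 gene that the rule names is not reported here); Ap1b1, Mgll, Sun2, mt-Co2, Fau, Slc1a2, Etv5 and Alk in the joint model and Nxph1 were chosen after their values were seen. The classes gated by Prkcd (at least 3 UMIs per 10000), by Sst and Ebf1 (1 and 10) and the glial nuclei (20) were also set after the data were seen. Scrublet, run through scanpy 1.11.5, marked 72 of 7161 nuclei (1.01%) as doublets; they were kept and removed as an alternative.

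The study's supplement pairs 2 fed with 2 fasted libraries by preparation batch under its own names. These were matched to the replicate numbers of the labels, with fed replicate 3 as the unpaired library by elimination, and every block value rests on that match; deviations from the group means of same-numbered libraries correlated at 0.163 over 7648 genes (with 2 pairs both values are equal). In data simulated from the members' sums, the quasi-likelihood test found 35.8% of genes changed 2-fold (7631 genes run) and 97.4% of those changed 4-fold (7742 genes). The joint model found 14% (12393 genes) and 92.5% (12397 genes), with 15.2% and 9.76% of its calls false. Alternatives were DESeq2 1.42.0, a likelihood ratio test, RLE scaling, no filter on low counts, thinned sums, other gates, no doublets, leaving out each library, and, added after seeing the data, members under 0.2% mitochondrial UMIs, members without Nxph1 and Sox6 and members with a Tox UMI. Gene positions are from GENCODE vM39.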

Additional observations from a re-analysis of the deposited data

Results flagged for a closer look

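In 6 genes the fasting response of the gated nuclei differed from that of the other inhibitory nuclei in the joint edgeR model, which is what brought them here. The difference of the log2 fold changes was -1.64 for Cdc14a, -1.17 for Srgap1, -1.12 for Ubash3b, 2.40 for Sox6, -2.01 for Lrmda and -1.07 for Pitpnc1. All 10 sums entered that model, 5 of them from gated nuclei. The Sox6 difference is 1.25 without fasted replicate 2, and 0.56 without the 6 members highest in Nxph1 and Sox6, a description only, since these were picked by Sox6 itself.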

How the results depend on the processing

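Among the settings tried for single genes, 452 kept direction and side of the threshold, 6 gained a call, 0 turned the direction and the rest lost the call. In gated nuclei, against 33 genes higher and 10 lower in fasted mice, the counts were 79 and 31 with the likelihood ratio test, 100 and 55 without a filter on low counts, 58 and 39 with the replicate block, 18 and 4 in sums thinned to equal depth, and 1 and 1 with members under 0.2% mitochondrial UMIs, where fewer nuclei and 6674 genes remained. DESeq2 gave 12 higher, and members with a Tox UMI 14 higher (11 lower). Among the genes that lost their call by DESeq2 were Lrmda (log2 change -1.95, adjusted p = 0.113), Entpd3 (1.61, 0.11) and Rpl9 (1.86, 0.0633). Leaving out 1 library gave 2 to 72 higher and 1 to 37 lower, where a lone fasted library is assumed to vary like the fed ones.

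In the other inhibitory nuclei, against 0 and 0, the counts were 160 higher and 5 lower with the likelihood ratio test, 133 and 2 without a filter, and 311 and 77 with the replicate block; leaving out 1 library gave 0 to 29 higher. For the difference in response, against 8 and 19, they were 33 and 35 with the likelihood ratio test, 36 and 52 without a filter, 2 to 93 and 6 to 79 on leaving out 1 library, 8 lower with members under 0.2% mitochondrial UMIs, and 65 and 53 with members holding a Tox UMI. With the replicate block Cd44 (adjusted p = 0.0164 by edgeR), Nxph1 (1.37e-07), mt-Atp6 (2.44e-07) and Rpl41 (0.0334) also passed in gated nuclei; it changed no other call of a gene named here beyond those given with the results. Genes lower in the fed profile numbered 493 from 5 CPM and 170 from 50 CPM, against 283. The share of members differed by -0.660 to 1.93 percentage points on leaving out 1 library, turning to -0.147 without fed replicate 2 and -0.660 without fasted replicate 1. The cause was not tested for any of these. Sums of 508542 to 1133358 UMIs, from 28 to 92 members, limit what can be seen of genes at low levels.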
